A study of Drosophila melanogaster with 15 samples.

Results

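Wing imaginal discs in which avl was knocked down were compared between 168 h and 116 h after egg deposition, 52 h apart. The comparison set 6 of the 15 arrays of the study against each other, the 3 arrays titled avl-RNAi at 168 h and the 3 titled avl-RNAi at 116 h, with the spread estimated on all 15, and covered all 11982 genes that could be named. Total RNA from Drosophila melanogaster discs was labelled with biotin, starting from 200 ng, and hybridized to Affymetrix 1-colour arrays. In the avl-RNAi groups (92, 116 and 168 h, 3 arrays each), larvae carried UAS Avl RNAi under Rn-GAL4, over a wild-type chromosome, and the labels give their morphology as neoplastic. In the control groups (92 and 116 h, 3 arrays each), larvae carried Rn-GAL4 with no RNAi construct. All 5 groups had elav-GAL80 over a wild-type chromosome, were w-, and were in the w1118 background. No control group at 168 h is used here. The design text calls the replicates separate samples, and the labels do not say whether they came from separate cultures or animals, so p-values measure the spread between these samples.

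The gene avl, now named Syx7, encodes a syntaxin that lets vesicles fuse with early endosomes, and discs that lose it are known to lose epithelial polarity and to overgrow. Rotund (rn) is expressed in the wing pouch, so Rn-GAL4 drives the construct in one region of the disc while the remaining cells do not express it, and elav-GAL80 is used to keep GAL4 inactive in neurons. Larvae with overgrown discs delay pupariation and stay in the third instar for days longer than normal larvae. The steroid hormone ecdysone ends that stage, and relaxin-like peptide Ilp8 from abnormal discs is known to hold it back. Syx7 was not among the genes with a probe set of their own, so the knockdown was not checked here.

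Levels are deposited log2 values, and a difference is the mean log2 value at 168 h minus that at 116 h, given ± its standard error. A gene is said to have risen or fallen where the adjusted p of limma's moderated test was under 0.05. Every array had a mean value of 6.01 and a median between 4.74 and 4.79. Across genes, arrays of one avl-RNAi group correlated at 0.994 to 0.999, and arrays of 168 h with arrays of 116 h at 0.980 to 0.987. The wing disc markers were expressed at both times: the mean level of the 14 measured genes of that list was 9.22, 9.22 and 9.16 at 168 h, against 8.82, 9.0 and 8.97 at 116 h.

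The discs changed widely during the extended larval period. Of the 11982 genes, 3237 (27.0%) were called, with 1854 (15.5%) higher and 1383 (11.5%) lower at 168 h than at 116 h. Most of these changes were small, since 166 genes rose and 203 fell by at least 2-fold, and 38 rose and 55 fell by at least 4-fold. The 3 arrays of one age all lay above the 3 of the other for 4705 genes (39.3%), and the median difference over all genes was -0.007. The largest rises and falls named below were chosen among called genes of this kind, so their lack of overlap was set by that choice. Members of gene lists were mostly named by the smallest adjusted p, so a lack of overlap in them was largely set too. The mean levels of muscle, fat body and gut genes differed between the ages too, and a fit that held these 3 levels as covariates called 58 genes, of which 38 rose and 20 fell, with a median standard error of 0.22 in place of 0.07. With each array centred on its median, 67.3% of the called genes were higher at 168 h, against 57.3% as deposited.

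The largest rise belonged to Cpr64Ac, a cuticle protein gene of the chitin-binding CPR family. Its log2 level was 10.54, 10.37 and 10.27 at 168 h, against 5.77, 5.74 and 5.82 at 116 h, a 24.6-fold rise (difference 4.62 ± 0.09, adjusted p = 1.49e-12). All 3 arrays at 168 h stood above every other array of the study: avl-RNAi discs averaged 5.69 at 92 h, while means in control discs were 5.75 at the younger and 5.64 at the older age. Cyp18a1, Actbeta and path were likewise higher at 168 h than in every other group. Cyp18a1 encodes a cytochrome that inactivates ecdysone and had 9.06, 9.08 and 8.57 at 168 h, against 5.24, 5.39 and 5.67 at 116 h, a rise of 11.1-fold (3.47 ± 0.14, adjusted p = 3.63e-09). Actbeta, an activin ligand gene on chromosome 4, had 6.54, 6.08 and 6.55 at 168 h, against 3.47, 3.39 and 3.43 at 116 h, which is 7.79-fold higher (2.96 ± 0.10, adjusted p = 7.34e-10). For pathetic (path), an amino acid transporter gene, the values were 12.08, 11.94 and 11.46 at 168 h, against 8.43, 8.69 and 8.69 at 116 h (3.23 ± 0.13, adjusted p = 4.02e-09). In each of these genes the arrays of both ages lay far apart, and a lack of overlap was required for a place among the largest rises. For path the avl-RNAi arrays of 116 h were also below the control arrays at 116 h, which had 9.69, 10.02 and 9.96. Control discs changed by -0.11 for Cpr64Ac, 0.12 for Cyp18a1, -0.01 for Actbeta and 0.31 for path between 92 and 116 h, none of which passed the test. The 4 rises were among the few calls that remained with muscle, fat body and gut levels as covariates.

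**Figure D1:**
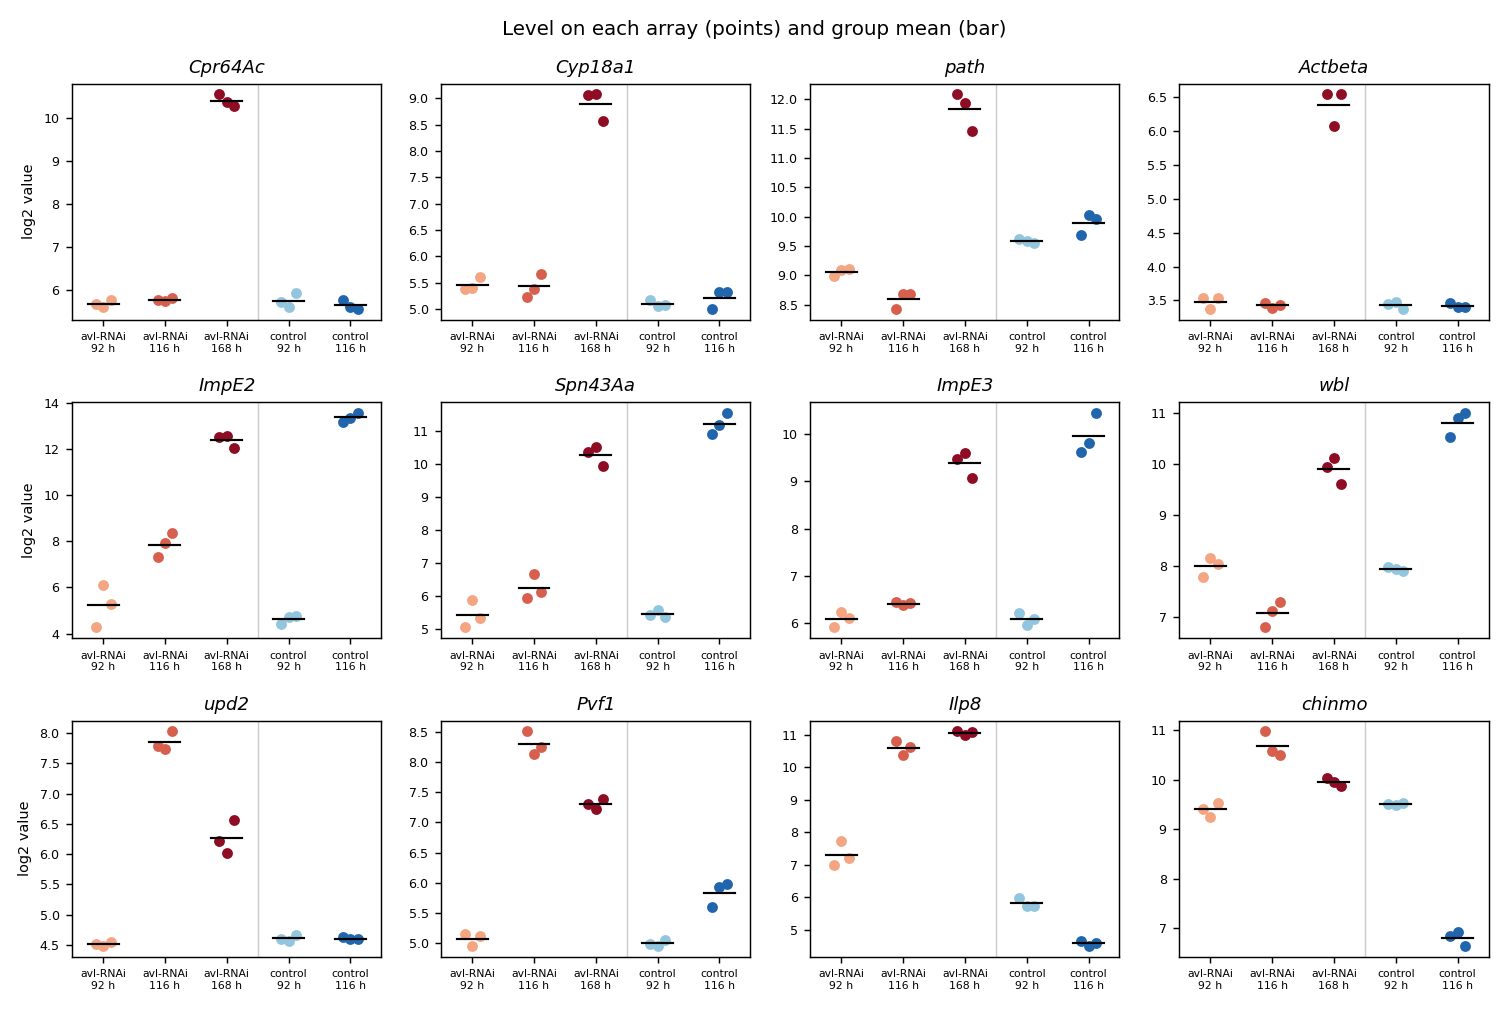
Log2 level of 12 genes on each array (points, one per array) with the group mean (bar), for avl-RNAi discs at 92, 116 and 168 h and control discs at 92 and 116 h. In the top row Cpr64Ac, Cyp18a1, path and Actbeta are high at 168 h, in the middle row ImpE2, Spn43Aa, ImpE3 and wbl at 168 h approach the level of control discs at 116 h, and in the bottom row upd2, Pvf1, Ilp8 and chinmo at 168 h lie above the control discs at 116 h.

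A second group of large rises involved genes that control discs also switched on between 92 and 116 h. ImpE2, an ecdysone-inducible gene of imaginal discs, had 12.54, 12.55 and 12.05 at 168 h, against 7.31, 7.91 and 8.34 at 116 h (4.53 ± 0.36, adjusted p = 1.05e-06). Its 3 arrays at 168 h lay clear above those at 116 h and still below the control discs at 116 h, which had 13.19, 13.35 and 13.56. ImpE3, another ecdysone-inducible disc gene, had 9.49, 9.61 and 9.08 at 168 h, against 6.43, 6.37 and 6.41 at 116 h (2.99 ± 0.18, adjusted p = 1.03e-07), and the control mean at 116 h was 9.96. The serpin gene Spn43Aa, which encodes a protease inhibitor, had 10.36, 10.50 and 9.93 at 168 h, against 5.94, 6.67 and 6.11 at 116 h (4.02 ± 0.23, adjusted p = 6.49e-08). Neither ImpE3 nor Spn43Aa overlapped between the ages, as the choice of genes required. Windbeutel (wbl), an endoplasmic reticulum protein gene, was 9.94, 10.12 and 9.61 at 168 h, against 6.80, 7.12 and 7.30 at 116 h (2.81 ± 0.16, adjusted p = 4.31e-08), and control discs had 10.52, 10.89 and 10.99 at 116 h. The avl-RNAi arrays at 116 h were the lowest of the study for wbl, and those at 168 h lay below the older controls alone.

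The other members of the 15 largest rises among genes with a name were Cpr49Ac (3.08 ± 0.32) and Cpr65Ec (2.81 ± 0.14), both CPR cuticle protein genes, the elongation factor gene eEF1alpha2 (2.77 ± 0.22), the sulfotransferase gene St2 (2.71 ± 0.15), nebu (2.88 ± 0.21), the juvenile hormone binding protein family gene Jhbp7 (3.0 ± 0.22) and Osi15 of the Osiris family (2.66 ± 0.19). Their adjusted p ranged up to 1.09e-05, the value for Cpr49Ac. These genes split by what control discs did. Cpr49Ac, Cpr65Ec, eEF1alpha2, St2 and nebu were higher in controls at 116 h than at 92 h, by 4.78, 3.20, 4.34, 5.04 and 4.18. Jhbp7 and Osi15 were lower in controls at 116 h, with differences of -3.19 and -2.22. Among genes known by number the largest rises were those of CG3823 (3.17 ± 0.18), CG34247 (3.02 ± 0.13) and CG9416 (2.63 ± 0.16).

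**Figure D2:**
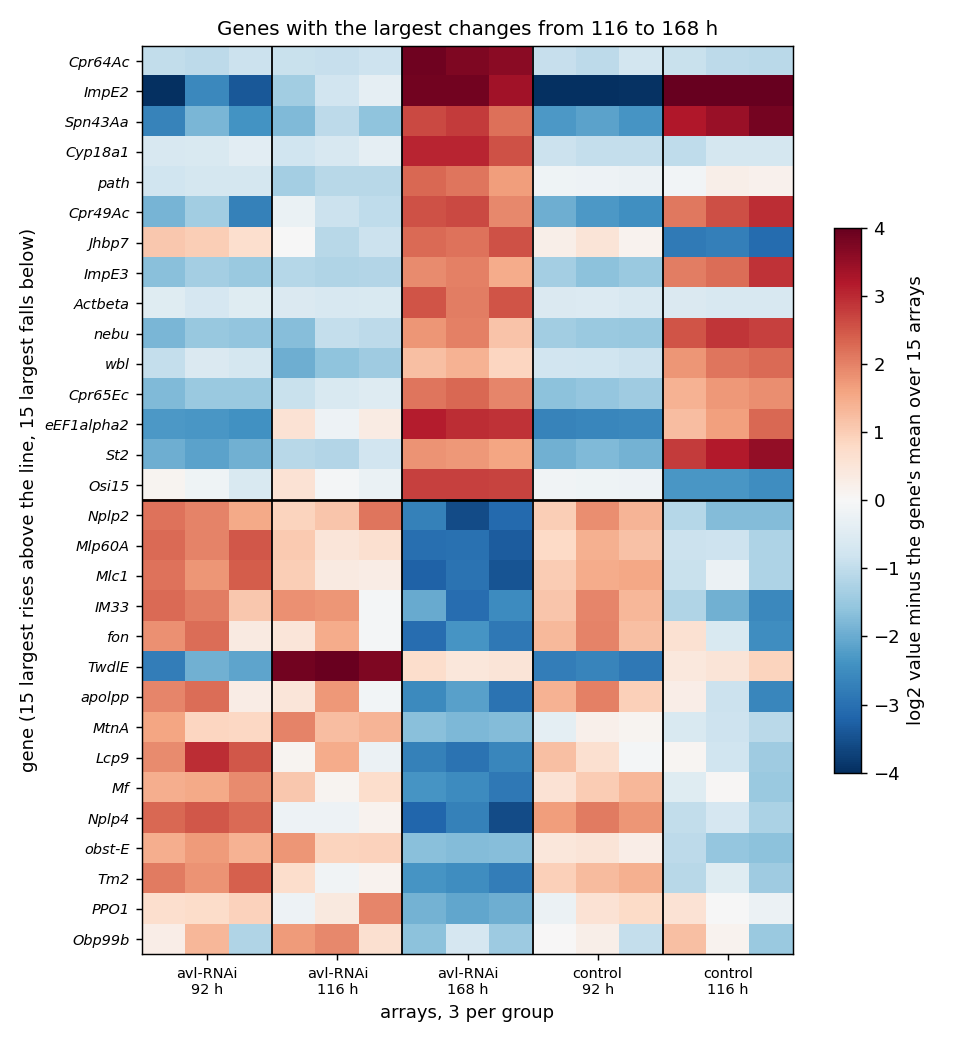
Log2 value of the 15 named genes with the largest rises (above the line) and the 15 with the largest falls (below) on each of the 15 arrays, minus the mean of the gene over all arrays; columns are the 3 arrays of avl-RNAi discs at 92, 116 and 168 h and of control discs at 92 and 116 h. The rises form a block of high values at 168 h, and for 9 of them, such as ImpE2 and St2, control discs at 116 h are high as well.

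Ecdysone acts through the EcR and usp receptor pair, which switches on early regulators and, through them, late effector genes. Of the 27 measured genes of the ecdysone list, 10 rose (37.0%), 5 fell and 12 were not called, with a median difference of 0.19. The regulators that rose included vri (1.47 ± 0.10), a leucine zipper repressor that had 9.14, 9.05 and 9.05 at 168 h, against 7.65, 7.46 and 7.72 at 116 h, and the nuclear receptor gene Eip78C (1.45 ± 0.11), which had 5.76, 5.75 and 5.49 at 168 h, against 4.15, 4.26 and 4.26 at 116 h. From the list of temporal factors, broad (br), a zinc finger regulator of metamorphosis, had 12.35, 12.27 and 12.07 at 168 h, against 11.14, 11.35 and 11.60 at 116 h (0.87 ± 0.11, adjusted p = 6.85e-05, and up to 1.55 in other probe sets). For all 3 regulators every array at 168 h was above every array at 116 h, which naming by the smallest adjusted p favours. The 5 members that fell were the cuticle gene Edg91 (-1.21 ± 0.16), the nuclear receptor gene ftz-f1 (-0.72 ± 0.11), the transporter gene E23 (-0.67 ± 0.15), MsrA (-0.26 ± 0.07) and Cth (-0.39 ± 0.05). Among the 10 measured juvenile hormone genes 4 rose and 1 fell. The risers were Jhbp7, JhI-26 (0.95 ± 0.17), the amino acid transporter gene JhI-21 (0.92 ± 0.07) and the coactivator gene tai (0.37 ± 0.09), and the faller was the hormone hydrolase gene Jheh2 (-0.45 ± 0.09).

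How far the late discs followed normal maturation was read from 2 gene sets chosen on the control arrays alone. In control discs 218 genes (1.82%) were called and at least 2-fold higher at 116 h than at 92 h, and 155 (1.29%) were called and at least 2-fold lower. Of the 218 genes, 135 (61.9%) also rose in avl-RNAi discs between 116 and 168 h and 20 (9.17%) fell, with a median difference of 0.63. Over all genes 15.5% rose and 11.5% fell. In avl-RNAi discs the arrays had medians, over these genes, of 5.63, 5.94 and 5.65 at 92 h, then 6.47, 6.66 and 6.68 at 116 h, then 7.55, 7.49 and 7.41 at 168 h. In control discs the medians were 7.66, 7.72 and 7.87 at the older age, against 5.67, 5.68 and 5.75 at the younger one. The arrays at 168 h thus lay between the avl-RNAi arrays at 116 h and the control arrays at 116 h, with no overlap on either side. The control arrays at 116 h helped to choose these genes, so their distance above the arrays at 168 h is partly set by that choice.

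The set that declines in controls moved the other way. Of the 155 genes lower in older controls, 94 (60.6%) fell in avl-RNAi discs between 116 and 168 h and 18 (11.6%) rose, with a median difference of -0.80. The shares over all genes were 11.5% and 15.5%. Their median level at 168 h was 5.57, 5.64 and 5.59, against 7.22, 6.79 and 6.79 at 116 h, and 5.62, 5.51 and 5.25 in control discs at 116 h. Here the arrays at 168 h overlapped with the older control arrays and were far from the avl-RNAi arrays at 116 h. Muscle, gut or fat body lists supplied 12 of these 155 genes and 2 of the 218.

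**Figure D3:**
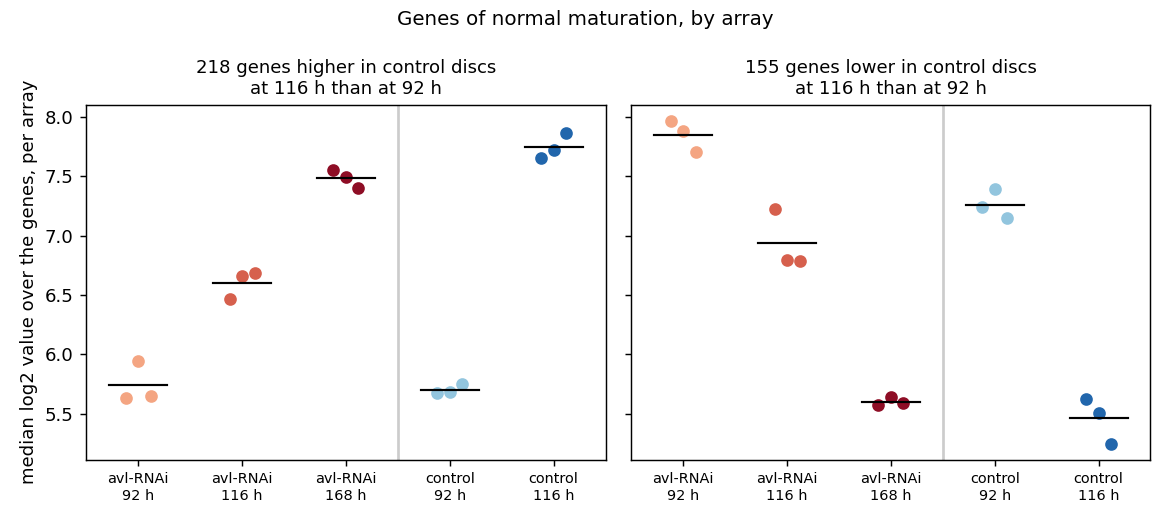
Median log2 level per array of 218 genes that were at least 2-fold higher (left) and 155 that were at least 2-fold lower (right) in control discs at 116 h than at 92 h; points are arrays and bars are group means. From 92 to 168 h the avl-RNAi discs move toward the level of control discs at 116 h in both sets.

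Seen from the avl-RNAi discs, 81 of the 166 genes that rose at least 2-fold (48.8%) belonged to the 218 genes of control maturation, which is 37.2% of that set. For the falls, 61 of 203 genes (30.0%) belonged to the 155 lower genes, 39.4% of that set. Of all genes, the 218 were 1.82% and the 155 were 1.29%. Another 38 of the risers (22.9%) and 73 of the fallers (36.0%) had a control difference of under 0.5 in size. Such a small control difference was found in 10930 of all 11982 genes, so these shares were below that over all genes. Across all genes the late avl-RNAi difference and the control difference, which share no array, had a Pearson correlation of 0.451. Genes are not independent replicates, and without the gut, muscle and fat body lists it was 0.435.

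The late change was then tested against the control change itself, gene by gene, as the difference between both differences. This contrast called 2541 genes (21.2%), 1423 with a more positive change in avl-RNAi discs (11.9%) and 1118 with a more negative one (9.33%). The intervals were 52 h in avl-RNAi discs and 24 h in control discs, so age and genotype cannot be told apart in it. Extremes of this contrast were taken among genes with a name whose avl-RNAi arrays of 168 h and 116 h did not overlap. The 5 such genes with the most positive excess were Jhbp7 (6.19 ± 0.31, adjusted p = 5.12e-08), Osi15 (4.87 ± 0.27, adjusted p = 8.73e-08), Cpr64Ac (4.73 ± 0.12, adjusted p = 1.01e-10), Cyp18a1 (3.36 ± 0.20, adjusted p = 1.92e-07) and the cuticle gene Cpr49Ah (3.15 ± 0.20, adjusted p = 2.99e-07). Jhbp7 had 9.82, 9.73 and 10.11 at 168 h, against 7.53, 6.45 and 6.70 at 116 h in avl-RNAi discs, while controls had 4.72, 4.82 and 4.48 at 116 h, against 7.80, 8.07 and 7.70 at 92 h. The gene thus moved in opposite directions over these 2 different intervals, and the level at 168 h was above that of every other array. Over the interval that both genotypes share, Jhbp7 was lower at 116 h than at 92 h in both. The avl-RNAi arrays had 8.63, 8.54 and 8.24 at 92 h, and their difference, 116 h minus 92 h, was -1.57 ± 0.22.

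On the negative side stood TwdlE (-6.66 ± 0.25, adjusted p = 3.28e-09), ImpE2 (-4.22 ± 0.51, adjusted p = 7.96e-05), ana (-4.15 ± 0.18, adjusted p = 1.54e-08), the odorant binding protein gene Obp99a (-3.87 ± 0.34, adjusted p = 5.57e-06) and the salivary glue gene Sgs8 (-3.86 ± 0.45, adjusted p = 5.79e-05). TwdlE, a Tweedle cuticle protein gene, had 7.48, 7.24 and 7.29 at 168 h, against 10.64, 10.72 and 10.51 at 116 h in avl-RNAi discs, a 9.79-fold fall, and 7.20, 7.28 and 7.67 in control discs at 116 h. It had been 4.01, 4.86 and 4.66 at 92 h in avl-RNAi discs, so it peaked at 116 h and came down to about the level of the older controls. ImpE2 and ana rose in both genotypes and rose less in avl-RNAi discs over these different intervals. In avl-RNAi discs ImpE2 had already risen before the late interval, from a mean of 5.22 at 92 h to 7.85 at 116 h (2.63 ± 0.36). Sgs8 varied among the arrays of 116 h, with 5.68, 7.40 and 6.10, and its late difference was -1.25 with all arrays and -0.74 without avl-RNAi 116 h replicate 2.

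**Figure D4:**
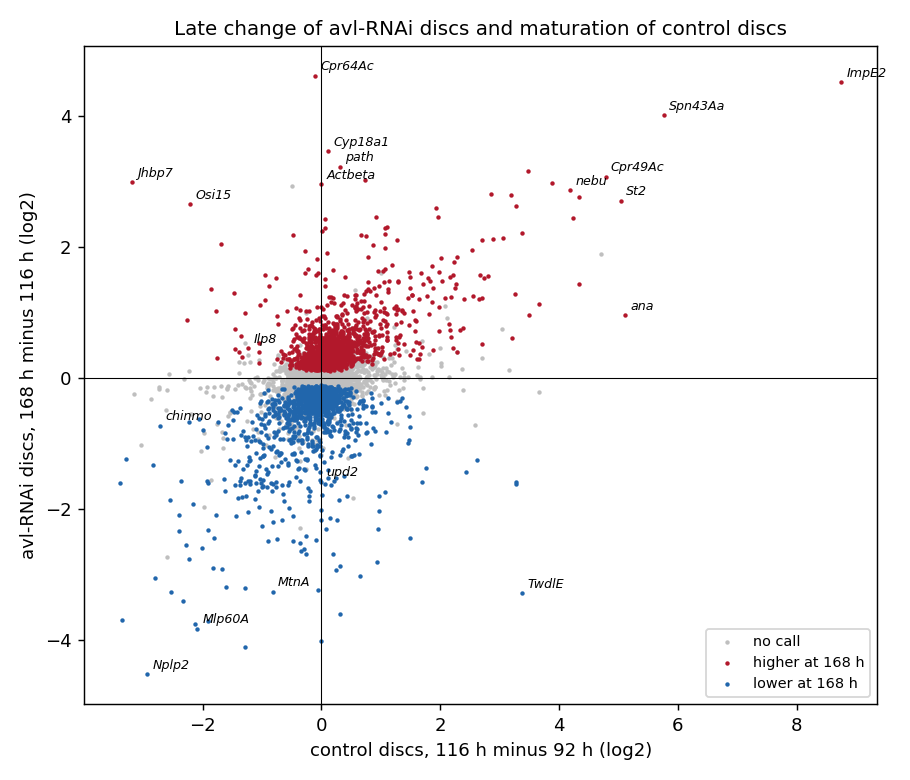
Log2 difference of each of the 11982 genes in avl-RNAi discs (168 h minus 116 h, vertical) against that in control discs (116 h minus 92 h, horizontal); red points were called higher at 168 h, blue points lower, and grey points were not called. ImpE2 and Spn43Aa lie at the upper right, Cpr64Ac, Cyp18a1 and Actbeta rise with no control change, and Jhbp7 and TwdlE lie in the corners of opposite change.

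Stress signalling through the JNK kinase is a known feature of discs with polarity defects, and JNK switches on secreted signals of the JAK/STAT pathway. The JNK target list moved mostly down between 116 and 168 h. Of 17 measured genes 13 fell (76.5%, against 11.5% of all genes), 2 rose and 2 were not called, with a median difference of -0.73. The mean level of the list was 7.36 at 92 h, 9.06 at 116 h and 8.45 at 168 h in avl-RNAi discs. Control discs had 6.81 at 116 h and 7.17 at 92 h, so the list at 168 h was still above both control groups. With muscle, fat body and gut levels as covariates 1 of the 17 genes was called and the median was -0.51. The cytokine gene upd2 had 6.21, 6.03 and 6.56 at 168 h, against 7.78, 7.74 and 8.03 at 116 h, a 3-fold fall (-1.59 ± 0.11, adjusted p = 2.34e-07). Its sister upd1 had 8.59, 8.74 and 8.76 at 168 h, against 9.72, 9.32 and 9.70 at 116 h (-0.89 ± 0.11, adjusted p = 7.82e-05). The PDGF/VEGF-like ligand gene Pvf1 had 7.30, 7.22 and 7.39 at 168 h, against 8.51, 8.14 and 8.25 at 116 h (-1.0 ± 0.11, adjusted p = 1.52e-05). None of these 3 ligand genes overlapped between the ages. Puckered (puc), the phosphatase that feeds back on JNK, had 9.02, 8.78 and 8.86 at 168 h, against 9.48, 9.62 and 9.88 at 116 h (-0.77 ± 0.10, adjusted p = 8.09e-05), and scarface (scaf) had 10.60, 10.34 and 10.27 at 168 h, against 11.64, 11.57 and 11.40 at 116 h (-1.13 ± 0.10). Atf3, a leucine zipper factor, fell by 1.27, and the filamin gene cher by 0.69 on the log2 scale. For these genes, too, every array at 168 h was below every array at 116 h.

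The ligand genes upd2 and Pvf1 stayed above the control level despite the fall, although levels at 168 h have no control of the same age. For upd2 the control arrays had 4.63, 4.59 and 4.59 at 116 h, and the avl-RNAi arrays had 4.51, 4.48 and 4.54 at 92 h. For Pvf1 they had 5.59, 5.92 and 5.98 in controls at 116 h, and 5.15, 4.95 and 5.11 in avl-RNAi discs at 92 h. Both genes therefore peaked at 116 h in avl-RNAi discs and had, at 168 h, a level between that peak and the other groups. The earlier differences, 116 h minus 92 h, were 3.34 ± 0.11 for upd2, 3.23 ± 0.11 for Pvf1, 2.0 ± 0.10 for puc and 2.27 ± 0.10 for scaf. They share the arrays of 116 h with the late differences, so they are set beside them without a comparison. The stress factor gene Ets21C had 6.54, 6.47 and 6.80 at 168 h, against 6.98, 6.82 and 6.97 at 116 h (-0.32 ± 0.09, adjusted p = 0.014), a fall that ended as a call in the fits without avl-RNAi 116 h replicate 1, 168 h replicate 1 or 168 h replicate 2.

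Ilp8 went against this trend. Its level was 11.11, 11.01 and 11.08 at 168 h, against 10.81, 10.39 and 10.63 at 116 h (0.46 ± 0.16, adjusted p = 0.0457). In control discs at 116 h it was 4.66, 4.51 and 4.60. The 3 arrays of 168 h were the highest of the study, yet the gap to the highest array of 116 h was small. The call was lost when any one of the other 5 avl-RNAi arrays than 116 h replicate 1 was left out, with limma adjusted p between 0.0786 and 0.157, and also with quantile normalization. The other riser of the list, the metalloprotease inhibitor gene Timp, differed by 0.30 ± 0.09, and by 0.55 in its other probe set. Its difference was 0.17 without avl-RNAi 116 h replicate 2, and the call ended then and without 168 h replicate 2 or 3. Upstream in the pathway, 4 of 14 measured JNK cascade genes rose and 2 fell, counts that were 2 and 1 without avl-RNAi 116 h replicate 1 or 168 h replicate 2. The receptor gene wgn (0.59 ± 0.06), the kinase genes hep (0.28 ± 0.06, with 0.18 to 0.72 across its probe sets) and bsk (0.18 ± 0.05) and the Fos gene kay (0.36 ± 0.12, but 0.02 in its other probe set) rose, and puc and Traf6 (-0.19 ± 0.06) fell. The calls of bsk, kay and Traf6 each ended when one of 3 or 4 arrays was left out, with differences of 0.15 to 0.16 for bsk, 0.29 to 0.38 for kay and -0.21 to -0.13 for Traf6.

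In the JAK/STAT list, 4 of 13 measured genes rose and 3 fell. The fallers were upd1, upd2 and chinmo. Chinmo, a transcription factor gene of early larval identity, had 10.04, 9.95 and 9.88 at 168 h, against 10.98, 10.58 and 10.50 at 116 h (-0.73 ± 0.11, adjusted p = 3.35e-04). Control discs at 116 h had 6.84, 6.92 and 6.65, against 9.51, 9.49 and 9.54 at 92 h, so every array at 168 h remained above the older controls. The 3 probe sets of chinmo ranged from -0.73 to -0.11. The risers were lama (1.60 ± 0.18), zfh2 (0.97 ± 0.16), Su(var)2-10 (0.33 ± 0.07, but 0.13 in its other probe set) and the receptor gene dome (0.23 ± 0.05). Among 8 temporal factors, br and the RNA-binding protein gene Syp (0.66 ± 0.12) rose while chinmo and lin-28 (-0.22 ± 0.06) fell, and 4 were not called.

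BMP and activin ligands are secreted proteins of the TGF-beta family that signal through paired receptors to pattern and grow the disc. Of the 20 measured members 12 rose (60.0%) and none fell, and the median difference was 0.22. At an unadjusted p under 0.05, 14 were higher and 1 was lower. When an array was left out 9 to 13 rose and up to 1 fell, and with muscle, fat body and gut levels as covariates 1 rose and the median was 0.30. The activin branch led the list. Dawdle (daw), an activin-like ligand gene, had 7.45, 7.49 and 6.88 at 168 h, against 5.37, 5.04 and 4.91 at 116 h, a 4.49-fold rise (2.17 ± 0.19, adjusted p = 2.43e-06), and Actbeta is described above. The receptor gene wit had 8.85, 8.80 and 8.85 at 168 h, against 8.14, 8.27 and 8.15 at 116 h (0.65 ± 0.08), and crossveinless (cv), which encodes a BMP-binding protein, had 8.69, 8.63 and 8.61 at 168 h, against 8.30, 8.29 and 8.33 at 116 h (0.33 ± 0.05). None of these genes overlapped between the ages. Naming by the smallest adjusted p favours such genes, and 39.3% of all genes did not overlap. The rise of daw exceeded the control change by 1.42 ± 0.27 (adjusted p = 0.00206), and that of Actbeta by 2.97 ± 0.14. For wit the excess was 0.09 ± 0.11 (adjusted p = 0.671).

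Genes that pattern the wing pouch and hinge moved mostly up. Of 28 measured members 14 rose, 3 fell and 11 were not called, with a median of 0.34. Doc2, a T-box gene, had 7.02, 7.02 and 6.74 at 168 h, against 5.42, 5.44 and 5.47 at 116 h (1.49 ± 0.09, adjusted p = 1.34e-07), and its neighbour Doc3 had 7.69, 7.54 and 7.63 at 168 h, against 6.89, 7.0 and 6.92 at 116 h (0.68 ± 0.06). Knot (kn), which acts in the centre of the wing, had 6.52, 6.62 and 6.37 at 168 h, against 4.67, 5.12 and 4.86 at 116 h (1.62 ± 0.14), and defective proventriculus (dve) had 8.89, 8.62 and 8.70 at 168 h, against 7.27, 7.56 and 7.62 at 116 h (1.26 ± 0.09). In all 4 genes the ages did not overlap, which naming by the smallest adjusted p favours. The probe sets disagreed for kn and dve, with a weakest difference of 0.01 for kn and 0.12 for dve. The gene whose promoter drives GAL4 here, rn, had 7.13, 7.23 and 7.02 at 168 h, against 6.29, 6.37 and 6.45 at 116 h (0.76 ± 0.09, adjusted p = 3.80e-05), although its other probe set gave -0.10. The 3 fallers were vestigial (vg, -0.50 ± 0.09), the selector gene of the wing, Distal-less (Dll, -0.77 ± 0.13) and Lim1 (-1.17 ± 0.21), and the probe sets of Dll ranged from -1.01 to -0.19 and those of Lim1 from -1.17 to -0.44. In control discs vg, Dll and Lim1 differed by 0.27, 0.49 and 0.31 between 116 and 92 h, and each late change was more negative than that, with adjusted p of 0.00115, 3.83e-04 and 0.00331 in the same order.

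Other patterning lists were smaller. In the notum list bab2 (1.16 ± 0.13), ush (0.76 ± 0.09) and mirr (0.48 ± 0.12, or 0.30 without avl-RNAi 116 h replicate 1) rose and 8 of 11 were not called, while 5 rose without avl-RNAi 116 h replicate 2. Of 9 compartment and Hedgehog genes 5 rose and none fell at an adjusted or unadjusted p under 0.05. The risers included the receptor gene ptc (0.68 ± 0.09), the selector gene en (0.33 ± 0.07) and the ligand gene hh (0.38 ± 0.12), whose call ended when any of 5 arrays was left out, at 0.35 to 0.40. Of 10 EGF receptor genes 4 rose, namely the ligand gene spi (0.62 ± 0.05), Egfr (0.48 ± 0.07), S (0.66 ± 0.08) and the secreted inhibitor gene aos (0.39 ± 0.08), and edl fell (-0.30 ± 0.09), a call that ended when any of 5 arrays was left out, at -0.32 to -0.23. Of 6 measured Wnt genes 2 rose, wls (0.46 ± 0.07) and Notum (0.44 ± 0.09), and por fell (-0.42 ± 0.08). Of 24 proneural, sensory organ and Notch target genes 8 fell and 5 rose, and 3 rose without avl-RNAi 116 h replicate 1 or 168 h replicate 3. The bristle selector sens had 4.38, 4.45 and 4.19 at 168 h, against 3.89, 3.96 and 3.97 at 116 h, a rise of 0.40 ± 0.10, while control discs rose by 2.29. Deadpan (dpn, -0.94 ± 0.07), E(spl)m3-HLH (-0.68 ± 0.05) and insc (-0.82 ± 0.08) fell.

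**Figure D5:**
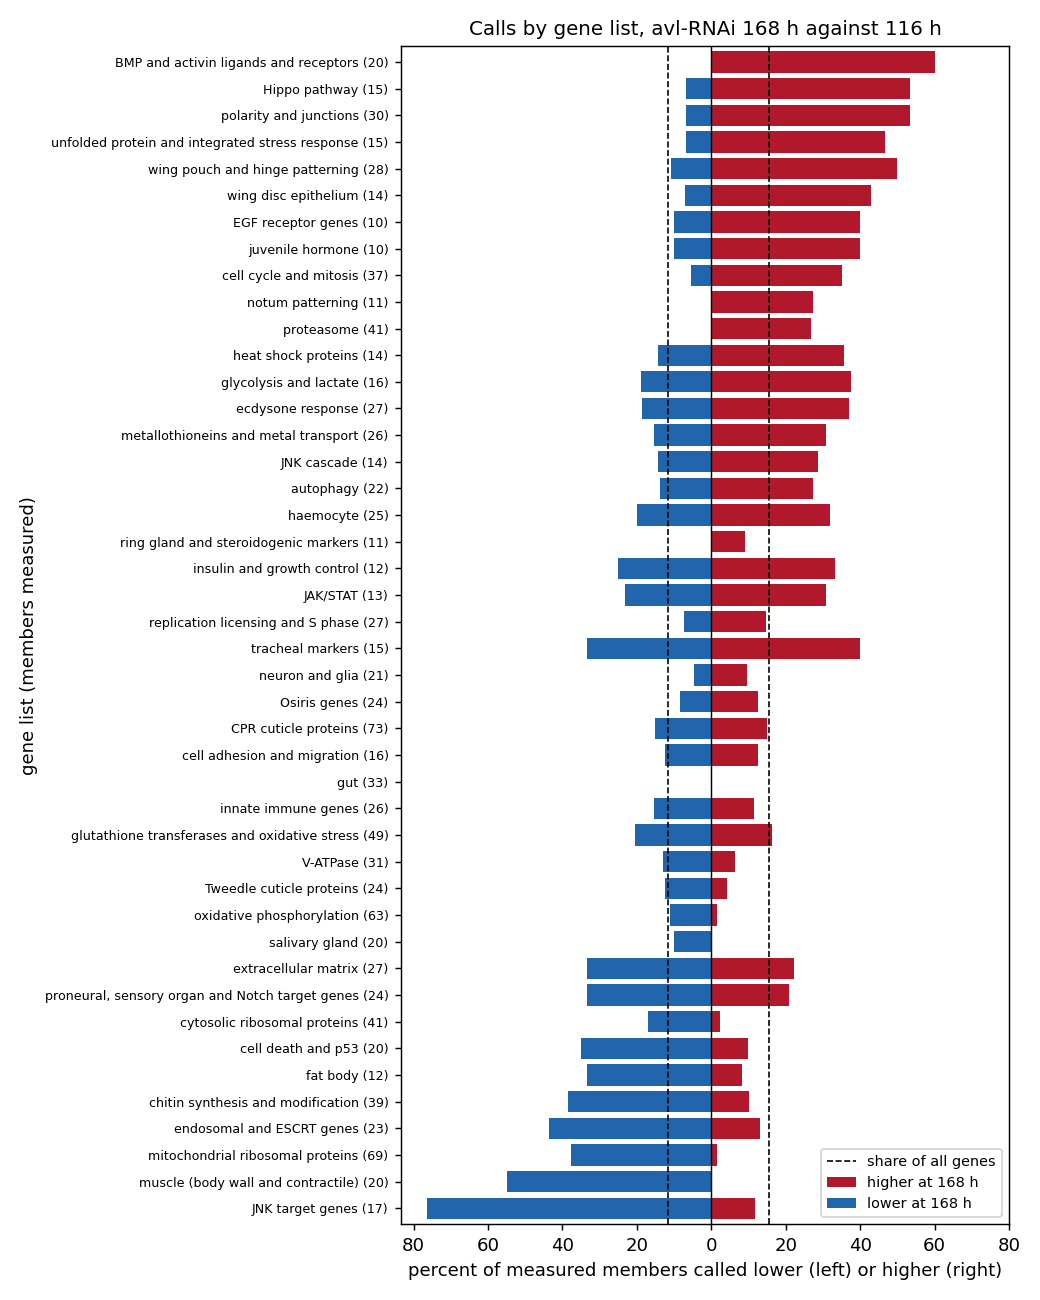
Percent of the measured members of each gene list with at least 10 measured genes that were called higher (red, right) or lower (blue, left) at 168 h than at 116 h; the dashed lines mark the shares over all genes, 15.5% higher and 11.5% lower. BMP and activin, Hippo, polarity and pouch genes extend furthest to the right, and JNK targets and muscle genes furthest to the left.

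Loss of avl acts on epithelial polarity, and genes of polarity and junctions rose by small steps. Of 30 measured members 16 rose (53.3%), 2 fell and 12 were not called (median 0.20, largest rise 0.80). Canoe (cno), an adherens junction linker, had 7.70, 7.71 and 7.68 at 168 h, against 6.60, 7.12 and 6.95 at 116 h (0.80 ± 0.10), with 0.13 in its other probe set. The septate junction genes Tsf2 (0.49 ± 0.05) and crok (0.35 ± 0.05) rose, and Nrg (-0.38 ± 0.05), a cell adhesion gene, and the polarity gene l(2)gl (-0.33 ± 0.11) fell. Arrays of the 2 ages overlapped for l(2)gl, and its call ended when any of 4 arrays was left out, at -0.34 to -0.21. Of the 15 measured genes of the Hippo pathway list 8 rose and 1 fell, a count that does not give the direction of pathway activity. The risers included jub (0.46 ± 0.05), the kinase gene wts (0.38 ± 0.07), crb (0.26 ± 0.05) and Rassf (0.26 ± 0.05), and the faller was fj (-0.27 ± 0.07). The polarity count was 10 without avl-RNAi 168 h replicate 1, and the Hippo count was 5 without 116 h replicate 3 or 168 h replicate 2. With muscle, fat body and gut levels as covariates no polarity gene was called, and the list median was 0.28.

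The machinery in which Syx7 takes part went the other way. Of 23 measured endosomal and ESCRT genes, which sort membrane proteins into endosomes, 10 fell (43.5%), 3 rose and 10 were not called, with a median of -0.19. The count was 6 without avl-RNAi 116 h replicate 1 or 168 h replicate 1. The mean level of the list was 8.50 at 92 h, 8.85 at 116 h and 8.71 at 168 h in avl-RNAi discs. Control discs had 8.635 at the older age, against 8.54 at the younger one. The list thus fell from its highest level, at 116 h, and at 168 h was still above both control groups. Chmp1 had 9.68, 9.62 and 9.81 at 168 h, against 10.36, 10.15 and 10.10 at 116 h (-0.50 ± 0.07, adjusted p = 1.09e-04), and Vps2 had 10.14, 10.08 and 10.10 at 168 h, against 10.54, 10.36 and 10.42 at 116 h (-0.34 ± 0.06). Neither gene overlapped between the ages, which naming by the smallest adjusted p favours. Vps45 (0.41 ± 0.09), Stam (0.24 ± 0.06) and dor (0.23 ± 0.06) rose. In control discs Chmp1 and Vps2 differed by 0.30 and 0.12. The late change was below the control change in 9 of the 23 members and above it in none, where 9.33% of all genes were below and 11.9% above. Of 31 V-ATPase genes 2 rose (1 when any of 4 arrays was left out) and 4 fell, led by the subunit gene Vha100-2 (-0.54 ± 0.05). Of that list 6.45% rose and 12.9% fell, against 15.5% and 11.5% of all genes. Of 22 autophagy genes 6 rose, among them Atg1 (0.35 ± 0.06) and Atg16 (0.26 ± 0.05), and the count was 3 without avl-RNAi 168 h replicate 3 and 4 without 168 h replicate 2, while Atg6 (-0.33 ± 0.05) and Atg10 (-0.26 ± 0.06) were among 3 that fell.

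Genes of mitosis and replication changed by small steps. Of 37 cell cycle and mitosis genes 13 rose (35.1%) and 2 fell (median 0.11), and 1 fell when any one avl-RNAi array of the 6 was left out. The mean level of the list was 9.23 at 92 h, 8.90 at 116 h and 9.02 at 168 h in avl-RNAi discs, and control discs had 9.06 at the older age, against 9.25 at the younger one. In both genotypes the list was thus lower at 116 h than at 92 h, and the late comparison starts from that lower level. E2f2 had 9.34, 9.37 and 9.36 at 168 h, against 8.85, 8.93 and 8.88 at 116 h (0.47 ± 0.04), the chromosomal passenger gene borr had 10.75, 10.78 and 10.88 at 168 h, against 10.46, 10.63 and 10.54 at 116 h (0.26 ± 0.05), and fzy, an anaphase activator, had 10.25, 10.26 and 10.35 at 168 h, against 9.82, 10.11 and 9.94 at 116 h (0.32 ± 0.06). Each of them was higher at 168 h in every array, though one probe set of fzy gave -0.04, and the count of risers was 8 without avl-RNAi 116 h replicate 1. The motor protein gene Klp61F (-0.36 ± 0.08) was one of the fallers. Of 27 replication genes 4 rose, Mcm10 (0.36 ± 0.10), Orc1 (0.30 ± 0.07) and PCNA (0.15 ± 0.04) among them, and Psf2 (-0.30 ± 0.05) and dUTPase (-0.20 ± 0.05) fell. Of this list 14.8% rose and 7.41% fell, against 15.5% and 11.5% of all genes. The mean level of the replication list was 9.55 at 92 h, 9.15 at 116 h and 9.21 at 168 h in avl-RNAi discs, and in control discs it was 9.16 at the older age, against 9.55 at the younger one. The step down thus lay before 116 h in avl-RNAi discs too, where Mcm10 differed by -0.79 and PCNA by -0.41 between 116 and 92 h, and by -0.61 and -0.31 in controls. The late median was 0.07, against a control median of -0.37. The late change was above the control change in 23 of the 27 genes and below it in none. Over all genes 11.9% were above and 9.33% below. This contrast starts from the avl-RNAi arrays of 116 h, after their step down, while the control step down lies within its interval. The difference of Mcm10 was 0.21 without avl-RNAi 116 h replicate 1, and that of PCNA was 0.12 and not called without 168 h replicate 3.

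Growth and metabolic genes gave a mixed picture. The insulin receptor gene InR had 9.50, 9.24 and 9.22 at 168 h, against 8.29, 8.05 and 8.11 at 116 h (1.17 ± 0.11, adjusted p = 3.63e-06), and ImpL2, which encodes a secreted antagonist of insulin signalling, had 12.27, 12.03 and 11.86 at 168 h, against 10.94, 10.97 and 11.01 at 116 h (1.08 ± 0.20, adjusted p = 0.00139). Both were higher at 168 h in every array. ImpL2 averaged 9.45 in control discs at 116 h. Sdr (-0.52 ± 0.06), another secreted binder of insulin-like peptides, S6k (-0.34 ± 0.05) and Sesn (-0.29 ± 0.07) fell, and foxo differed by 0.47 ± 0.15, or by 0.31 without avl-RNAi 116 h replicate 1, where its call ended, as it did without 116 h replicate 2 or 168 h replicate 2 or 3. Of 16 glycolysis genes 6 rose, including Hex-A (0.67 ± 0.09), Pfk (0.65 ± 0.09), Glut1 (0.64 ± 0.12, lowest probe set 0.37) and Hph (0.54 ± 0.06, highest probe set 0.99), and 3 fell, among them Pgk (-0.22 ± 0.05) and the trehalose synthesis gene Tps1 (-1.77 ± 0.40).

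Mitochondrial ribosomal protein genes fell by small steps. Of 69 measured members 26 fell (37.7%), 1 rose (mRpL28, 0.28 ± 0.05, or 2 genes without avl-RNAi 168 h replicate 1) and 42 were not called, with a median of -0.13, and 18 to 31 fell when one array was left out. The mean level of the list was 9.49 at 92 h, 9.15 at 116 h and 9.02 at 168 h in avl-RNAi discs, and control discs had 9.23 at the older age, against 9.50 at the younger one. In control discs the median of the list was -0.28. The late change was above the control change in 16 of the 69 members and below it in 1, where 11.9% of all genes were above and 9.33% below. The largest falls of the list were mRpS28 (-0.40 ± 0.07), mRpS26 (-0.39 ± 0.06) and mRpL46 (-0.38 ± 0.05). Of 63 oxidative phosphorylation genes 7 fell (11.1%, near the 11.5% of all genes) and 1 rose, UQCR-6.4 (0.29 ± 0.06), or 2 without any one array of 116 h. Their late change was above the control change in 29 and below it in 0. The mean level of that list was 9.83 at 92 h, 9.48 at 116 h and 9.45 at 168 h in avl-RNAi discs. Control discs had 9.56 at 116 h, against 9.82 at 92 h. Of 41 proteasome genes 11 rose (26.8%) and none fell at an adjusted or unadjusted p under 0.05. The late change was above the control change in 26 of the 41 and below it in none, where 11.9% of all genes were above and 9.33% below. The control fall lies within the interval of that contrast, while avl-RNAi discs had fallen before 116 h, where it starts. The mean level of the proteasome list was 9.06 at 92 h, 8.77 at 116 h and 8.88 at 168 h in avl-RNAi discs, and 8.998 at the older age in control discs, against 9.14 at the younger one. The list was thus lower at 168 h than in either control group. The count of risers was 6 without avl-RNAi 116 h replicate 1 and 7 without 116 h replicate 3. Of the 15 measured unfolded protein and stress response genes 7 rose, 7 were not called and Gcn2 fell (-0.21 ± 0.05). Among the risers were endoplasmic reticulum chaperone genes. Hsc70-3, the chaperone known as BiP, had 12.58, 12.55 and 12.46 at 168 h, against 11.80, 11.88 and 11.97 at 116 h (0.65 ± 0.06), Gp93 had 11.50, 11.45 and 11.45 at 168 h, against 10.84, 10.97 and 10.94 at 116 h (0.55 ± 0.06) and calnexin (Cnx99A) had 10.62, 10.55 and 10.58 at 168 h, against 9.87, 10.01 and 10.03 at 116 h (0.61 ± 0.05). These 3 genes showed no overlap between the ages, which naming by the smallest adjusted p favours.

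Small heat shock genes split. Hsp26 had 10.38, 10.46 and 10.24 at 168 h, against 8.64, 8.55 and 8.71 at 116 h (1.72 ± 0.09, adjusted p = 3.10e-08), and Hsp27 rose by 1.04, whereas l(2)efl (-1.72 ± 0.20) and the cochaperone gene stv (-0.54 ± 0.06) fell. For l(2)efl another probe set gave -0.05. Among cell death genes 7 of 20 fell, including p53 (-0.49 ± 0.07, but -0.09 in its other probe set) and Irbp18 (-0.38 ± 0.08), and the caspase gene Dronc (0.57 ± 0.06) and its activator Dark (0.40 ± 0.05, but 0.08 in its other probe set) rose. Metallothionein MtnA, a metal-binding protein gene, had 6.28, 6.13 and 6.20 at 168 h, against 9.93, 9.18 and 9.31 at 116 h, a 9.63-fold fall (adjusted p = 2.92e-07). All 3 arrays at 168 h were below those at 116 h. The zinc transporter gene ZnT77C (1.31 ± 0.14) and Mvl (0.52 ± 0.05) rose, and the transferrin gene Tsf1 fell (-1.61 ± 0.11), although its 3 probe sets ranged from -1.61 to -0.05.

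Genes of the extracellular matrix changed in both directions: 6 of 27 rose and 9 fell. SPARC, a basement membrane chaperone, had 9.74, 9.60 and 9.88 at 168 h, against 11.01, 10.98 and 11.19 at 116 h (-1.32 ± 0.09, adjusted p = 3.68e-07). Perlecan (trol) had 8.93, 8.89 and 9.02 at 168 h, against 9.90, 9.80 and 10.003 at 116 h (-0.95 ± 0.06, adjusted p = 1.07e-07), although its 8 probe sets ranged from -0.95 to 0.07. Papilin (Ppn) had 11.98, 11.92 and 11.72 at 168 h, against 10.70, 10.88 and 11.03 at 116 h (1.01 ± 0.11), and the multiplexin gene Mp had 8.72, 8.88 and 8.69 at 168 h, against 7.57, 7.67 and 7.97 at 116 h (1.03 ± 0.14, but 0.33 in its other probe set). Each of the 4 genes had its arrays of 168 h apart from those of 116 h, which naming by the smallest adjusted p favours. The late change was more negative than the control change by -0.56 ± 0.08 for trol and -1.21 ± 0.13 for SPARC.

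Cuticle and chitin genes, which build the apical matrix of the disc and of the larva, held some of the largest changes and little common direction. Of 73 CPR genes 11 rose (15.1%) and 11 fell (15.1%), shares near those of all genes, with Cpr64Ac among the risers and Cpr60D (-1.65 ± 0.17) among the fallers. Of 24 Tweedle genes TwdlT rose (1.85 ± 0.17) and TwdlE, Twdlbeta (-1.57 ± 0.14) and TwdlV (-0.62 ± 0.09) fell. Of 39 chitin genes 15 fell and 4 rose, the risers being the chitin synthase gene kkv (0.39 ± 0.05) and the chitinase genes Cht10 (1.21 ± 0.12), Cht5 (0.62 ± 0.15) and Cht11 (0.29 ± 0.06). The chitin-binding protein gene obst-E had 5.05, 4.99 and 5.01 at 168 h, against 8.50, 7.62 and 7.65 at 116 h (-2.90 ± 0.20, or -1.88 in its other probe set), and the chitinase-like Idgf6 had 7.92, 7.93 and 8.04 at 168 h, against 9.88, 9.95 and 10.21 at 116 h (-2.05 ± 0.16). Both were lower at 168 h in all arrays. Osi6 fell by 2.31, with 8.85, 6.15 and 5.86 at 116 h, and by 1.36 without avl-RNAi 116 h replicate 1, the highest of those arrays. These families share sequence, so a probe set can respond to related members.

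The 15 largest falls held genes known from muscle, fat body, haemolymph and larval cuticle. The neuropeptide-like precursor gene Nplp2 had 6.14, 5.26 and 5.72 at 168 h, against 9.74, 9.96 and 11.002 at 116 h, a 23.1-fold fall (-4.53 ± 0.33, adjusted p = 4.93e-07). Mlp60A, a muscle gene, had 5.39, 5.40 and 5.06 at 168 h, against 9.43, 8.87 and 9.04 at 116 h (-3.83 ± 0.18), with 0.07 in another of its 3 probe sets, and the myosin light chain gene Mlc1 had 5.46, 5.76 and 5.25 at 168 h, against 9.67, 9.06 and 8.99 at 116 h (-3.75 ± 0.26). These genes did not overlap between the ages, as the choice of the largest falls required. Also among the 15 largest falls were the muscle genes Mf (-3.19 ± 0.34) and Tm2 (-2.77 ± 0.25), the lipoprotein gene apolpp (-3.27 ± 0.68), the clotting gene fon (-3.40 ± 0.66), the immune peptide gene IM33 (-3.69 ± 0.51), Nplp4 (-3.06 ± 0.20), the larval cuticle gene Lcp9 (-3.21 ± 0.47), Obp99b (-2.68 ± 0.68) and the prophenoloxidase gene PPO1 (-2.69 ± 0.42). Of genes known by number the largest falls were CG13315 (-4.11 ± 0.60), CG13215 (-4.02 ± 0.15) and CG9757 (-3.72 ± 0.40). CG13215 had 5.13, 4.94 and 5.37 at 168 h, against 8.72, 9.37 and 9.42 at 116 h, a 16.2-fold fall and a control average of 3.74 at both ages. It was near the control level at 92 h in avl-RNAi discs too, at 3.77, so it peaked at 116 h like TwdlE.

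Of 20 measured contractile muscle genes 11 fell (55.0%) and none rose at an adjusted or unadjusted p under 0.05, with a median of -0.82. Their mean level was 6.27, 6.20 and 6.04 at 168 h, against 7.62, 7.16 and 7.41 at 116 h. The ages did not overlap, and the mean of control discs was 6.80 at the older age, against 7.66 at the younger one. For the 12 measured fat body genes the mean level was 7.79, 7.95 and 7.60 at 168 h, against 8.25, 8.83 and 7.94 at 116 h, where replicate 3 fell just below one array of 168 h. Of these, Fbp2 (-2.62 ± 0.66), Lsp2 (-2.16 ± 0.64), apolpp and mdy (-0.22 ± 0.05) fell and the fatty acid synthase gene FASN1 rose (0.99 ± 0.18), while 2 genes of the list rose without avl-RNAi 116 h replicate 2. The call of Lsp2 ended when any of 4 arrays was left out, at -2.23 to -1.80. The 33 gut genes averaged 4.50, 4.48 and 4.56 at 168 h, against 4.92, 4.82 and 4.87 at 116 h, and no gut gene was called by limma, with 5 lower and 0 higher at an unadjusted p under 0.05, and 1 was called lower without avl-RNAi 116 h replicate 3. In bulk tissue, fewer cells of a type and less RNA per cell cannot be told apart, and the part of attached larval tissue in the other results was not tested beyond the covariate fit.

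Blood cell genes were uneven. Of 25 measured haemocyte genes 8 rose and 5 fell, with 5 risers without avl-RNAi 116 h replicate 1, and the mean level was 6.97, 6.93 and 6.91 at 168 h, against 6.70, 6.86 and 7.46 at 116 h. One array, avl-RNAi 116 h replicate 3, stood high. PPO1, a crystal cell gene, had 6.44, 6.26 and 6.40 at 168 h, against 8.13, 8.75 and 10.30 at 116 h, and PPO2 had 7.43, 6.92 and 7.43 at 168 h, against 8.80, 9.29 and 10.94 at 116 h, both highest on that array. PPO2 (-2.42 ± 0.42), atilla (-1.39 ± 0.09), Idgf3 (-1.44 ± 0.24, but -0.22 in its other probe set) and vir-1 (-0.95 ± 0.08) fell with PPO1, while the engulfment receptor gene drpr (0.48 ± 0.05) and Ppn rose. The salivary gland list averaged 4.20, 4.27 and 4.54 at 168 h, against 4.44, 5.15 and 4.39 at 116 h, and its glue gene Sgs7 had a difference of -1.61, or of -0.90 without avl-RNAi 116 h replicate 2. The call of Sgs7 ended then and without 168 h replicate 1 or 2. Of 9 adult muscle precursor markers, genes of the myoblasts beneath the notum, twi (-0.58 ± 0.09) and htl (-0.71 ± 0.11) fell and sns (0.35 ± 0.07) rose, and 2 rose without avl-RNAi 116 h replicate 3. Genes of the tracheal list went both ways, with 6 of 15 higher, among them bnl (1.41 ± 0.07, but 0.12 in its weakest probe set) and knrl (1.28 ± 0.13), and 5 lower, led by Gasp (-0.55 ± 0.07). The gene bnl encodes a secreted FGF ligand, so its rise is not that of a marker of tracheal cells. The 5 lower genes of the list became 2 without avl-RNAi 116 h replicate 1 or 168 h replicate 2, and 3 without 168 h replicate 1.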

How the data were processed

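RNA from 15 samples in 5 groups of 3 was measured on Affymetrix 1-colour arrays, and the analysis started from the values of 18952 probe sets that the authors deposited. The values the authors deposited are read as log2 values from their range, since the base of the logarithm is not named. Background correction and normalization are not given in the sources used here, and the submitters' processing notes name Partek and limma without version or role. Of the probe sets, 13647 had 1 gene symbol, 402 had several and 4903 had none (183 of them array controls), and symbols were updated through gene identifiers for 13544. The brightest probe set stood for a gene, which mattered for 1094 of the 11982 genes. Tissue was dissected and frozen, and 200 ng of total RNA was used, per the labels.

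A model with 1 mean per group was fitted to all 15 arrays with limma 3.58.1 in R 4.3.3 (10 residual degrees of freedom), with moderated variance and Benjamini-Hochberg adjustment over all 11982 genes and a threshold of 0.05. The tests were 168 h against 116 h in avl-RNAi discs, and that difference minus 116 h against 92 h in control discs, with tables made in Python 3.11.15 with pandas 2.3.3. On simulated data for the first test (200 changed genes among 11982), 95.4% of changes of 1 and 85.6% of changes of 0.5 log2 units were called, and 4.33% of calls were false. The simulated noise was independent between genes and held no tissue shift shared by an array, so it cannot give the rate of false calls from such shifts. The number of arrays limits the precision. Members, gene lists and tests were chosen with earlier results of these data known. The text names the 15 largest rises and falls with a gene name, 3 of each known by number, the 5 largest and 5 smallest differences from the control change among genes with a name, the leading called genes of each list, lists of few calls in full, and a few signalling genes. The largest rises, falls and differences were taken only from called genes whose avl-RNAi arrays of 168 h and 116 h did not overlap. Alternatives were a fit on the arrays of the compared groups alone, another variance prior, array weights, a replicate block, quantile and median scaling, filters on low values, the mean of probe sets, a threshold of 0.01, tissue levels as covariates and each array left out. Promoter motifs, sequences and the knockdown of Syx7, and Mmp1 and upd3, were not analysed here.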

Additional observations from a re-analysis of the deposited data

Results flagged for a closer look

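For 10 genes the test of the difference itself found that the change in avl-RNAi discs (168 h minus 116 h) departed from that in control discs (116 h minus 92 h). These 10 are the extremes in each direction among genes with a name whose avl-RNAi arrays of 168 h and 116 h did not overlap. The excess on the log2 scale was 6.19 for Jhbp7, 4.87 for Osi15, 4.73 for Cpr64Ac, 3.36 for Cyp18a1 and 3.15 for the cuticle gene Cpr49Ah. It was -6.66 for TwdlE, -4.22 for ImpE2, -4.15 for ana, -3.87 for Obp99a and -3.86 for Sgs8. CG13215, known by number and so left out of the choice, had -4.02 ± 0.22, beyond Obp99a and Sgs8. For Cpr49Ah the excess combined a rise of 0.89 ± 0.14 in avl-RNAi discs with a control difference of -2.26 ± 0.14. For Obp99a it combined -1.43 ± 0.24 in avl-RNAi discs with 2.44 ± 0.24 in controls. The intervals compared were 52 h and 24 h long, so genotype and age cannot be told apart. Dixon's test for a single outlying sample was not applied, since every group holds 3 arrays.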

How the results depend on the processing

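The count of 3237 genes between 168 and 116 h was 2460 when the spread was estimated on the 6 arrays of the compared groups alone, and this fit ended 26 of the 259 named calls, among them Ets21C, Gcn2, Mcm10, PCNA, Osi6, Sgs8, Vha13, fj, mirr and mdy. The count stayed within 1.5 times there and with the trended and robust prior (3281), array weights (3025), the scalings (3167 and 3283), the low-value filters (3313 and 2963), the mean of probe sets (3227) and with one array left out (2533 to 3267). It was 2091 at an adjusted p under 0.01, as fewer genes pass a stricter threshold. It was 58 with muscle, fat body and gut levels as covariates, a fit in which the median standard error was 0.22. The count of 2541 genes that departed from the control change was 2084 to 2635 with one array left out, 1491 at the stricter threshold and 1349 with the covariates. Leaving out control 92 h replicate 3 and control 116 h replicate 2 together, an alternative chosen after seeing the data because their gut levels stood apart, gave 1863. Of the 259 named calls, the covariate fit kept 18, ended 226 and turned the sign of 15, and its cause was not tested. The turned values were 0.355 for Ald1, 0.012 for Atg12, 0.035 for Osi23, -0.027 for Osi24, 0.144 for Osi6, -0.102 for Su(var)2-10, -0.012 for Syp, 0.103 for chinmo, -0.016 for dor, 0.047 for fj, -0.016 for inv, 0.013 for l(2)gl, -0.214 for mirr, 0.093 for pim and 0.117 for up. Samples with the same replicate number did not deviate together over all genes (correlations -0.0997 to -0.0169). These correlations cannot exclude a shared batch that affects some genes. With the number as a replicate block 3172 genes were called between the ages and 2461 against the control change, and 6 of the named calls ended (Atg12, Ilp8, Lcp65Af, Osi23, Vha100-5 and kay). Sign changes of a list's median with the scaling occurred for JNK cascade, JAK/STAT, proneural, V-ATPase, haemocyte, CPR and Osiris genes.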

Other observations

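Genes on chromosome 4, the small dot chromosome, were called higher at 168 h more often than genes of the other arms: 22 of 65 rose (33.8%) and 4 fell (6.15%), against at most 17.7% on any other arm. The same chromosome had 21 of 65 genes higher in control discs at 116 h than at 92 h (32.3%), against at most 14.4% elsewhere. Its median difference in avl-RNAi discs was 0.10, and its genes described above, Actbeta, zfh2 and apolpp, had differences of 2.96, 0.97 and -3.27. Chromosomes were looked at after the data were seen, and no test of their difference was made.

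Probe sets with no gene name or with several were fitted apart. Of 5122 such probe sets 347 were called higher and 197 lower at 168 h. The largest falls among them were -5.14 and -5.09 on the log2 scale, both larger in size than that of any gene with a name, and the largest rises were 2.71 and 2.37.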
